A study of Homo sapiens with 2 samples.

Results

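The proximal long arm of human chromosome 18, bands q11 to q12, carries the desmosomal cadherins, the N-cadherin gene CDH2 and CABLES1 among many genes of unrelated function. A stretch of 45 genes from GATA6 to MOCOS was followed here in 2 mesothelioma cell lines, to see whether the ordinary neighbours of CABLES1 and the cadherins moved with them, as a copy number difference between cultures would make them do. Copy number was not analysed here. The members were chosen by gene symbol or older synonym, with the log2 ratios of both arrays already known, so their values are descriptions and carry no test. Of the 45 genes, 41 were named on the array, out of 12445 named genes in all, and 4 of the 41 were matched through an older name. IMPACT, KCTD1, KLHL14 and RPRD1A had no probe under any name in the probe annotation.

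One array compared ACC-MESO1 cells depleted of CD26 with control ACC-MESO1 cells. The other compared MSTO-211H cells that had received CD26 in a pLNCX2 vector with control MSTO-211H cells. Both are established mesothelioma cell lines, and CD26 is a cell surface peptidase encoded by DPP4. Depletion used an shRNA by one label and an siRNA by another, and the treatment of the control cells, and whether cells were clones or pools, is not stated in the labels. The RNA of the depleted ACC-MESO1 cells and that of the control MSTO-211H cells both carry the number 3 in the labels, although the cell lines named with them differ. Each contrast was 1 array with no dye swap, so values come without a p-value, a standard error or an SD over arrays, and their precision is limited by the number of arrays. Values are log2 ratios, manipulated cells over their control, and a log2 ratio of 1 is 2-fold.

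Desmosomes are junctions that tie the keratin filaments of neighbouring cells together. Desmogleins and desmocollins are their transmembrane cadherins, and plakoglobin, plakophilins and desmoplakin link the cadherins to the filaments inside the cell. Genes of all 7 desmogleins and desmocollins sit side by side on 18q. DSG2 and DSC2 are used in many epithelia, while DSG1, DSG3 and DSC1 are best known from stratified epithelium such as epidermis. N-cadherin belongs to adherens junctions and is abundant in mesothelial and mesenchymal cells.

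DPP4 itself was at -3.92 after depletion and at 5.51 after transfection, in the direction of the labels. The median of all genes was 0.012 over 10347 genes after depletion and 0.0072 over 9359 genes after transfection. Where a gene had several probes, the pooled SD between them was 0.42 after depletion and 0.45 after transfection, the sole repeat measurement available. Centring the arrays on ribosomal protein genes instead would raise every gene by 0.33 after depletion and by 0.29 after transfection, so signs close to 0 depend on that choice while differences between gene groups do not. Mesothelial markers had a median of 0.069 over 10 genes after depletion and -0.12 over 9 after transfection. MSLN (-1.31) and KRT18 (-1.16) were at least 2-fold lower in transfected cells and ITLN1 (1.38) at least 2-fold higher in depleted cells. The list was mixed, with 6 of 10 above 0 after depletion and 4 of 9 after transfection. UPK3B (0.66) and WT1 (0.57) were higher in transfected cells, and WT1 (-0.37) was lowest in depleted cells. A ratio does not show how strongly a marker was expressed, so the labelled cell type could not be checked further.

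After CD26 transfection the block lay above the rest of its chromosome almost throughout. Its 28 measured members had a median log2 ratio of 0.59, with quartiles of 0.37 and 0.68, and 26 of them were above 0, where 50.7% of all genes on the array were. The 122 measured genes of chromosome 18 outside the members had a median of 0.0040, with quartiles of -0.19 and 0.29. The difference between the medians was 0.58. Of the 28 members, 22 lay above the upper quartile of the other chromosome 18 genes. The between-probe SD of 0.45 was exceeded by 18 members, a cut at which all genes were not counted. A log2 ratio of at least 0.5 was reached by 17 members, against 13.1% of all genes, and none of the members was at -0.5 or lower, against 9.40% of all genes. At 2-fold the count was 5 members higher, against 4.09% of all genes, and 0 lower, against 1.37%; a count of 0 from 1 array has no test behind it. Those 5 were ASXL3, TAF4B, DSG1, CABLES1 and TTC39C (1.08), and the member next below them was ELP2 (0.86).

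After CD26 depletion the median of the same stretch was close to that of its chromosome. Its 31 measured members had a median of 0.078, with quartiles of -0.20 and 0.45, against 0.0048 for the 138 other chromosome 18 genes. Above the upper quartile of those other genes lay 12 of the 31. The between-probe SD of 0.42 was exceeded by 10, again with no count over all genes. Above 0 there were 16 members, where 51.3% of all genes were. At least 2-fold higher were DSG1 and TAF4B, 2 members against 3.31% of all genes, and CABLES1 was the 1 member at least 2-fold lower, against 1.56% of all genes. ASXL3 (0.84) was the nearest member short of 2-fold. At a log2 ratio of 0.5 or more the count was 6 members, against 12.8% of all genes, and CABLES1 was the 1 member at -0.5 or lower, against 9.80%.

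**Figure D1:**
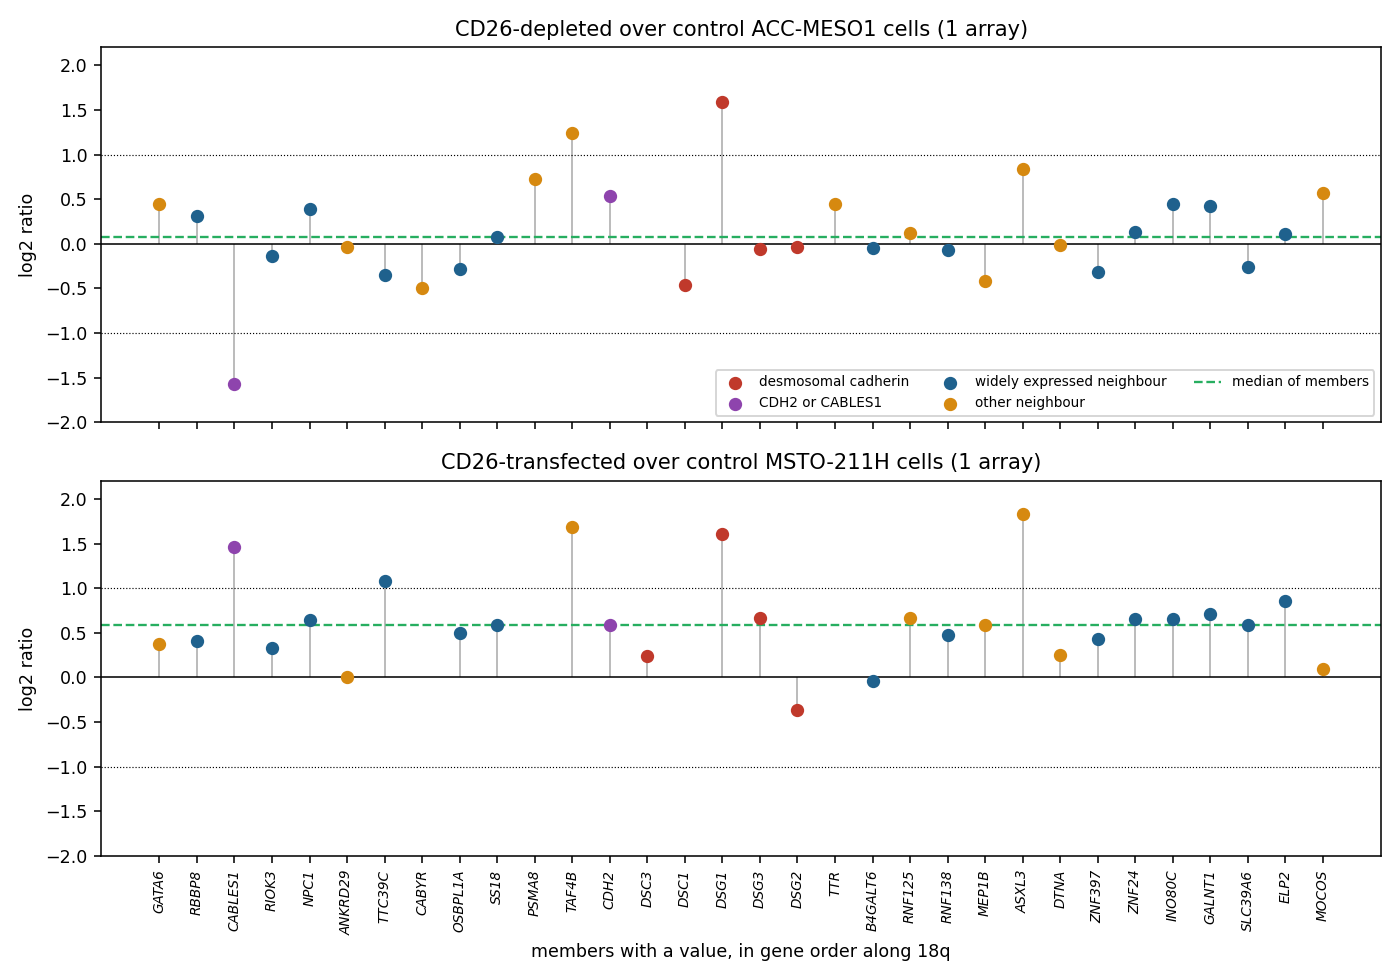
Log2 ratio (vertical axis) of each member with a value, in gene order along 18q (horizontal axis), on the depletion array (top) and the transfection array (bottom), with 1 point per gene coloured by group, dotted lines at 2-fold and a dashed line at the median of the members. Members scatter around a median of 0.078 after depletion and lie mostly above 0 around a median of 0.59 after transfection.

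On the transfection array the ordinary neighbours lay above the rest of the chromosome when taken without the cadherins and CABLES1. All neighbours together had a median of 0.59 over 22 genes, against 0.0040 for chromosome 18 outside the members. They are most of the 28 measured members, so their median and that of the block are not separate results. Of the 18 neighbours that most cell types are known to express, 14 had a value, and their median was 0.59 in CD26-transfected cells, with an SD over genes of 0.26, against 0.50 over all genes. Above 0 were 13 of the 14, and B4GALT6 (-0.036), a lactosylceramide synthase gene, was the exception. The same 14 genes had a median of 0.013 in CD26-depleted cells, 7 above 0 and 7 below, none of them past 0.5 in size. Each of the 14 was higher on the transfection array than on the depletion array, against 48.3% of all genes measured on both. That count reuses the transfection values above and is not a separate result.

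Values of the single neighbours are given by their roles. SS18, a subunit of the BAF chromatin remodelling complex, was at 0.078 after depletion and 0.59 after transfection. INO80C, a subunit of the INO80 remodelling complex, was at 0.45 and 0.65 in the same order, RBBP8, which acts in DNA end resection, at 0.31 and 0.41, and the zinc finger genes ZNF24 and ZNF397 at 0.13 and 0.66 and at -0.32 and 0.43. All 5 were thus higher after transfection by less than 2-fold, while after depletion ZNF397 was below 0 and the others above it.

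NPC1, which moves cholesterol out of lysosomes, was at 0.39 after depletion and 0.65 after transfection. The oxysterol-binding protein gene OSBPL1A was at -0.28 after depletion, from 1 probe, and at 0.50 after transfection, where its 2 probes gave 0.56 and 0.44. GALNT1, which starts mucin-type O-glycosylation, was at 0.42 and 0.71. The remaining widely expressed neighbours were the kinase gene RIOK3 (-0.13 after depletion and 0.33 after transfection), the ubiquitin ligase gene RNF138 (-0.066 and 0.48) and TTC39C (-0.34 and 1.08).

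SLC39A6, a zinc transporter, and ELP2, a subunit of the Elongator complex, are divergent neighbours near the far end of the block. SLC39A6 was at -0.26 after depletion and 0.58 after transfection. ELP2 was at 0.11 after depletion and 0.86 after transfection. Their RefSeq start sites lie 559 bases apart on opposite strands, so both are shown as a pair whose promoters adjoin. The windows run from 250 bases before to 50 after each start on GRCh38.p14, at chr18:36129291-36129590 on the minus strand for SLC39A6 and chr18:36129649-36129948 on the plus strand for ELP2. They are printed 5′ to 3′ on the gene's strand, with CpG dinucleotides in capitals here and in the windows that follow.
SLC39A6: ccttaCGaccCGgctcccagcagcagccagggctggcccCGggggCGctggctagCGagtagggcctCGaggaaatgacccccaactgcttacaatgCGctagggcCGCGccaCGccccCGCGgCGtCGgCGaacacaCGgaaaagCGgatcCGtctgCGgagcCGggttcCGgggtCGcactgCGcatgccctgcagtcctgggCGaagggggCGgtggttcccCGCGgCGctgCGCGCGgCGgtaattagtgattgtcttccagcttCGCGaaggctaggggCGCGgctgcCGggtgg
ELP2: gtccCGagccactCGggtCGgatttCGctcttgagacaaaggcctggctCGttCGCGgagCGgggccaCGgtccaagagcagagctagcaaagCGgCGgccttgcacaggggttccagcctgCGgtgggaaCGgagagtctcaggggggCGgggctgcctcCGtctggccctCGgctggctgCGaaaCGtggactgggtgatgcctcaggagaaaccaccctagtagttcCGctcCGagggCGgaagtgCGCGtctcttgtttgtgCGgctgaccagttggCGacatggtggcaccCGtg
The SLC39A6 window holds 37 CpGs and the ELP2 window 26, both above the median of 14 over 35116 RefSeq promoter windows of the same length.

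The other neighbours, the members left outside the cadherins, CABLES1 and the widely expressed neighbours, were more spread. Of 18, 8 had a value after transfection, with a median of 0.48, an SD over genes of 0.70 and all 8 above 0, and 11 had a value after depletion, with a median of 0.44, or 0.28 over the 8 measured on both arrays. TAF4B, a TFIID subunit known from germ cells, was 2.37-fold higher in depleted cells (log2 ratio 1.24) and 3.23-fold higher in transfected cells (1.69). ASXL3, a Polycomb-related gene, was at 0.84 after depletion and 1.83 after transfection, the highest member there at 3.56-fold. Both genes were thus higher than every widely expressed neighbour on each array. The highest of those neighbours were INO80C (0.45) after depletion and TTC39C (1.08) after transfection. Of the 14 widely expressed neighbours, 7 were above 0 on both arrays, against 26.6% of all genes.

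The ubiquitin ligase gene RNF125 (0.12 after depletion and 0.67 after transfection), the metalloprotease gene MEP1B (-0.42 and 0.59) and the transcription factor gene GATA6 (0.44 and 0.38) were intermediate. The dystrobrevin gene DTNA (-0.018 and 0.25), MOCOS, a molybdenum cofactor sulfurase (0.56 and 0.099), and ANKRD29 (-0.035 and 0.00076) lay lowest of this group after transfection. With a value after depletion alone, the testis proteasome subunit gene PSMA8 was at 0.73, the thyroxine carrier gene TTR at 0.45 and the sperm protein gene CABYR at -0.49. LAMA3, HRH4, ZNF521, AQP4, DSC2, DSG4, NOL4, MAPRE2 and ZNF396 had a probe and no value on either array, which makes 9 of the 41 named members.

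The desmosomal cadherins differed from one another. Of 7 genes, 4 had a value on each array, with medians of -0.047 after depletion (0.28 with ribosomal centring) and 0.45 after transfection. DSG1 was 3.01-fold higher in depleted cells (log2 ratio 1.59) and 3.05-fold higher in transfected cells (1.61), from the same single probe. DSG3 was at -0.060 after depletion and 0.67 after transfection. DSG2 was at -0.034 after depletion and -0.36 after transfection, the lowest member there. DSC1 had a value after depletion alone (-0.46), and DSC3 after transfection alone (0.24). DSG1 thus stood well above the other members of its cluster on both arrays, and on the depletion array its nearest measured neighbours DSC1 and DSG3 were both below 0.

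Markers of stratified epithelium, the tissue in which DSG1 and DSG3 are abundant, had a median of -0.11 over 7 genes after depletion and -0.18 over 6 after transfection, with none past 2-fold. Their range was -0.30 (KRT5) to 0.037 (IVL) after depletion and -0.75 (KRT1) to 0.10 (KRT5) after transfection. Fibroblast markers had medians of -0.066 and -0.60 over 5 genes each, with none past 2-fold. The part of other cell types in the DSG1 value was not tested, and in bulk RNA fewer cells of a type and less RNA per cell cannot be told apart.

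The promoter windows of the 3 desmogleins with values differ in base composition. They lie on the plus strand of GRCh38.p14 at chr18:31317910-31318209 for DSG1, chr18:31447491-31447790 for DSG3 and chr18:31497927-31498226 for DSG2, and are shown because these paralogs of 1 cluster had different log2 ratios.
DSG1: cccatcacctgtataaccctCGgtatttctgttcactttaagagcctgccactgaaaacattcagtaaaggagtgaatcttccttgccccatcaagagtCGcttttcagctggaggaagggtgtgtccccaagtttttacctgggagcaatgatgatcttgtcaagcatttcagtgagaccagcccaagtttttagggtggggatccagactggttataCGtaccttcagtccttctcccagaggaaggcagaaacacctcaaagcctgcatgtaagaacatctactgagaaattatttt
DSG3: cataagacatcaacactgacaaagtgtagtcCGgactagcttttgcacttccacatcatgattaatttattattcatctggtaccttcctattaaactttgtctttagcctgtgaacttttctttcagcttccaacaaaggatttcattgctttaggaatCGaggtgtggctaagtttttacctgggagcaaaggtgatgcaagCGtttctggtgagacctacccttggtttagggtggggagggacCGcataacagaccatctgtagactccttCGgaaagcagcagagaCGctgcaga
DSG2: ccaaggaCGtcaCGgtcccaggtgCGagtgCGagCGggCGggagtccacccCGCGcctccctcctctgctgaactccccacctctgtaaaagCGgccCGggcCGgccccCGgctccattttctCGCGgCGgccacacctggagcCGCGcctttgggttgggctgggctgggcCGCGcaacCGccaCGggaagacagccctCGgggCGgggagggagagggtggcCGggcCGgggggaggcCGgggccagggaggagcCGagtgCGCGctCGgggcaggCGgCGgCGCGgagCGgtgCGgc
DSG1 has 3 CpGs in the window, DSG3 has 6 and DSG2 has 36. DSG1 and DSG3 share the 20 bases aagtttttacctgggagcaa, which occur in 2 of the 35116 windows, those of these genes. The longest run that DSG2 shares with DSG1 is 7 bases, and with DSG3 it is 9 bases.

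Desmosome genes on other chromosomes had a lower median than the block after transfection and a median close to that of the block after depletion. Of 10, 9 had a value after depletion, with a median of -0.018 (0.31 with ribosomal centring) and none past 2-fold, and 8 after transfection, with a median of 0.14 and PKP2, a plakophilin (1.10), as the 1 gene at least 2-fold higher. The block medians were 0.078 after depletion and 0.59 after transfection. With symbols as listed, the block and these genes both had a median of -0.018 after depletion. Desmoplakin, DSP, was at 0.23 after depletion and 0.22 after transfection, and plakoglobin, JUP, at -0.41 and -0.48. Over the adherens junction genes the medians were -0.11 (11 genes) and 0.056 (9 genes). In that list the P-cadherin gene CDH3 (1.35) was at least 2-fold higher and CDH4 (-1.13) at least 2-fold lower after depletion, and none was past 2-fold after transfection, where the beta-catenin gene CTNNB1 was highest at 0.90.

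CDH2 was at 0.53 after depletion and 0.59 after transfection. Its transfection value lay in the middle of the 28 measured members and helped to set the block median, so the 2 are not separate results. Without the desmosomal cadherins, CDH2 and CABLES1, the remaining 22 members had a median of 0.59 after transfection. Both CDH2 values came from 1 probe and exceed the between-probe SD, which is not a spread between cultures. A log2 ratio of at least 0.5 was reached by 12.8% of all genes after depletion and 13.1% after transfection. E-cadherin, CDH1, on another chromosome, was at -0.18 after depletion and 0.056 after transfection.

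**Figure D2:**
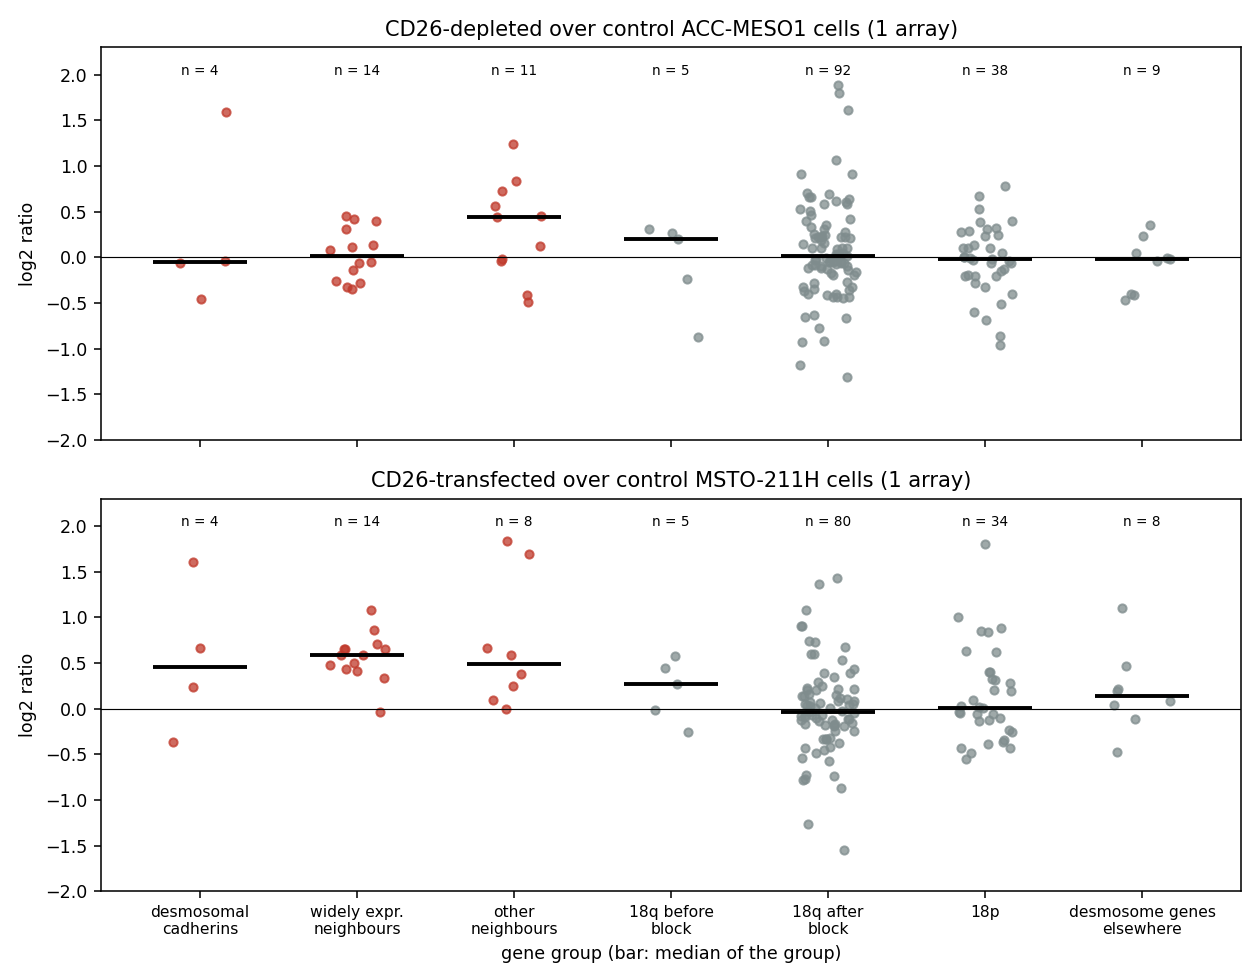
Log2 ratio (vertical axis) of each gene in 7 groups (horizontal axis) on the depletion array (top) and the transfection array (bottom), with block members in red, other genes in grey and a bar at each group's median. After transfection the widely expressed neighbours cluster around 0.59, while genes of 18q after the block centre on -0.035 and those of the short arm on 0.0085.

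CABLES1, which encodes a Cdk-binding protein, was 2.96-fold lower in depleted cells (log2 ratio -1.57) and 2.75-fold higher in transfected cells (1.46), opposite in sign like DPP4. Its 2 probes differed on the transfection array, at 0.69 and 2.23. The probe at 2.23 had no value after depletion. The probe that gave -1.57 after depletion was the one at 0.69 after transfection, so within that probe CABLES1 was past 2-fold on the depletion array alone. A value of 0.69 is close to the member median of 0.59 and to NPC1 (0.65). After depletion its measured neighbours RBBP8 (0.31) and RIOK3 (-0.13) were both far from -1.57.

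CABLES1 and TAF4B are shown as members whose gene means were past 2-fold on both arrays, CABLES1 with opposite signs, resting on its second probe after transfection, and TAF4B with the same sign. The windows lie on the plus strand of GRCh38.p14 at chr18:23134314-23134613 for CABLES1 and chr18:26226195-26226494 for TAF4B.
CABLES1: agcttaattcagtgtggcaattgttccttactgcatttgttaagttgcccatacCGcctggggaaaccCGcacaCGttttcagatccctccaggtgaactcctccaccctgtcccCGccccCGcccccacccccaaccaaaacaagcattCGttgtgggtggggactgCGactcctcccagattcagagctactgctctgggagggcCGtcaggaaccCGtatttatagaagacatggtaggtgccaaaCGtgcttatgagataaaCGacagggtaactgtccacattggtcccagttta
TAF4B: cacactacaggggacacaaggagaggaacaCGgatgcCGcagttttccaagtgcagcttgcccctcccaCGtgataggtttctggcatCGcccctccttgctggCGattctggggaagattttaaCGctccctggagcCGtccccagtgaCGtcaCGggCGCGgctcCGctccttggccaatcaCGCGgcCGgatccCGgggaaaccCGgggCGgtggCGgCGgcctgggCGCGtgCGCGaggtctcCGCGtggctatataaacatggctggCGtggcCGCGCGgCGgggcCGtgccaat
CABLES1 has 11 CpGs in the window and TAF4B has 32. Over the 38 members with a RefSeq promoter window the median was 23.5 CpGs. The letters GGGCGG, searched on both strands and overlapping the CpG count, were found in 23 of the 38 windows, against 45.0% of all windows. TATAAA, also on both strands, was found in 7 of the 38, CABLES1 and TAF4B among them, against 11.5% of all windows. The higher values after transfection were found with both kinds of promoter. Members with at least 14 CpGs had a median of 0.58 (18 genes, 17 above 0), and those with fewer had 0.69 (8 genes, all 8 above 0). After depletion the medians were 0.13 (19 genes) and -0.28 (9 genes). For some members the window belongs to an internal start, so these counts describe 1 start per gene.

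On the transfection array the higher values ended sharply at the far end of the block and less so at the near end. The last members in order were GALNT1 (0.71), SLC39A6 (0.58), ELP2 (0.86) and MOCOS (0.099), and the next 5 measured genes beyond them were TPGS2 (0.038), KIAA1328 (-0.87), CELF4 (-0.18), PIK3C3 (0.21) and SETBP1 (-1.55), with a median of -0.18. On the near side the 5 measured genes before GATA6 were ROCK1 (-0.014), GREB1L (0.58), ESCO1 (0.44), ABHD3 (-0.26) and MIB1 (0.28), with a median of 0.28. Over all 80 measured genes of the long arm beyond the block the median log2 ratio was -0.035, and over the 34 of the short arm it was 0.0085.

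Genes inside the span that were not members had positive values after transfection as well. They were RMC1 (0.25), TRAPPC8 (0.33) and GAREM1 (0.61), and with them 29 of 31 measured genes in the span were above 0. Divided by order, the first 10 measured members had a median of 0.55. The next 9 had a median of 0.59 and the last 9 a median of 0.65. These medians were similar, while single members ranged from -0.36 (DSG2) to 1.83 (ASXL3). The members below 0 were DSG2 and B4GALT6, which adjoin each other among measured genes.

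A running median over 9 genes on the transfection array lay between 0.21 and 0.65 for windows centred inside the span. For windows centred elsewhere on chromosome 18 it lay between -0.19 and 0.40, the highest of them centred on ABHD3 just before the block. On the depletion array the range was -0.13 to 0.45 inside the span and -0.36 to 0.42 elsewhere, so there the ranges overlapped widely and the highest window inside the span was slightly above the highest elsewhere. It was centred on TAF4B, where SS18, PSMA8, TAF4B and CDH2 lie in order.

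Unbroken runs of genes above 0 were long in the block after transfection. On the transfection array, 16 measured genes in a row from MIB1 to DSG3 were above 0. This was the longest of 2167 such runs on the autosomes and X, but it rests on ANKRD29 at 0.00076, below the median of all genes (0.0072). With centring on chromosome 18 outside the block ANKRD29 was at -0.0032, which breaks that run. After DSG2 and B4GALT6 came a further 15 in a row from TRAPPC8 to TPGS2. Runs of 15 above 0 were also found on chromosomes 5 and 14, and runs at or below 0 reached 17 genes on chromosome 13 and 16 on chromosome 1. On the depletion array the longest run in the block was 5 genes, from SS18 to CDH2, and 185 of 2534 runs were at least that long, up to 18 on chromosome 5. Chromosome medians ranged from -0.25 (chromosome 13) to 0.21 (chromosome 14) after transfection and from -0.035 (X) to 0.058 (chromosome 6) after depletion. The median of the block after transfection lay above all 23 of these chromosome medians. That ranking is no test, because the 28 members were chosen with their values known and whole chromosomes had 123 to 840 genes. Short stretches elsewhere were also high, such as the run of 15 on chromosome 14, with a median of 0.48.

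**Figure D3:**
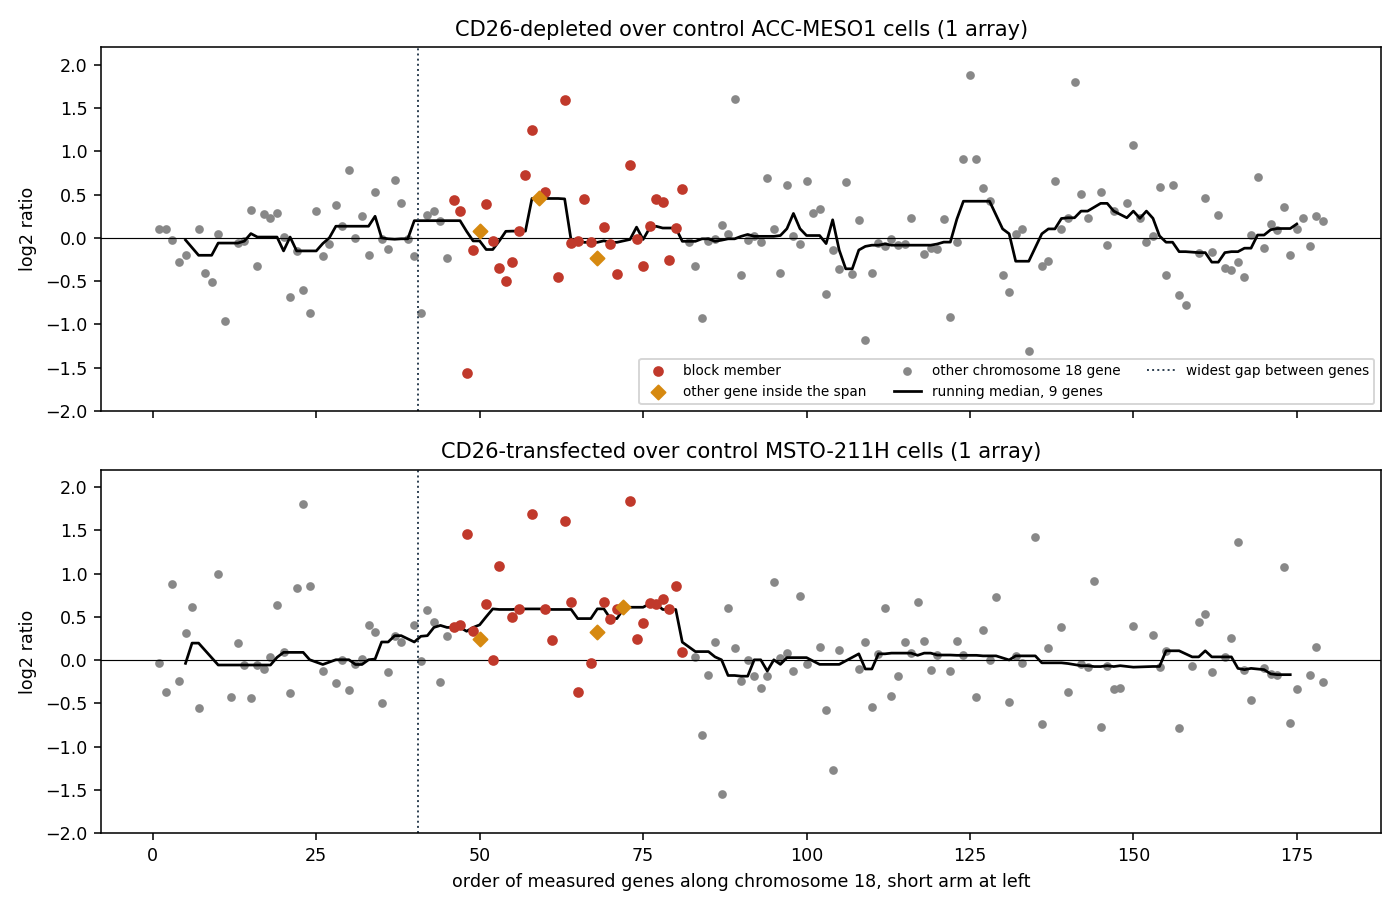
Log2 ratio (vertical axis) of measured chromosome 18 genes against their order along the chromosome (horizontal axis) on the depletion array (top) and the transfection array (bottom), with members in red, other genes inside the span as diamonds, the rest in grey and a running median over 9 genes as a line. The dotted line marks the widest gap between genes, taken as the centromere. After transfection the line is between 0.21 and 0.65 inside the span and near 0 along most of the rest.

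Set side by side, 27 members had a value on both arrays. Lower after depletion and higher after transfection, as DPP4 was, were 11 members, against 22.9% of all genes measured on both. None was higher after depletion and lower after transfection, against 2151 of the 8956 genes measured on both. Opposite signs were thus seen in 11 members, against 46.9% of all genes. Higher on both were 14 members, against 26.6% of all genes. Past 2-fold on both arrays with the signs of DPP4 there was 1 member, CABLES1, against 0.134% of all genes, and with the CABLES1 probe measured on both arrays (0.69 after transfection) there was 0. DSG1 and TAF4B were at least 2-fold higher on both, against 0.279%. Since most members were above 0 after transfection, the sign after depletion decided the class, and with ribosomal centring the members of opposite sign numbered 4 instead of 11. All genes were not counted with that centring, so 46.9% is not the share to set beside the 4. The transfection value exceeded the depletion value in 24 of the 27, against 48.3% of all genes, and the median difference was 0.47, against -0.022 over all genes.

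**Figure D4:**
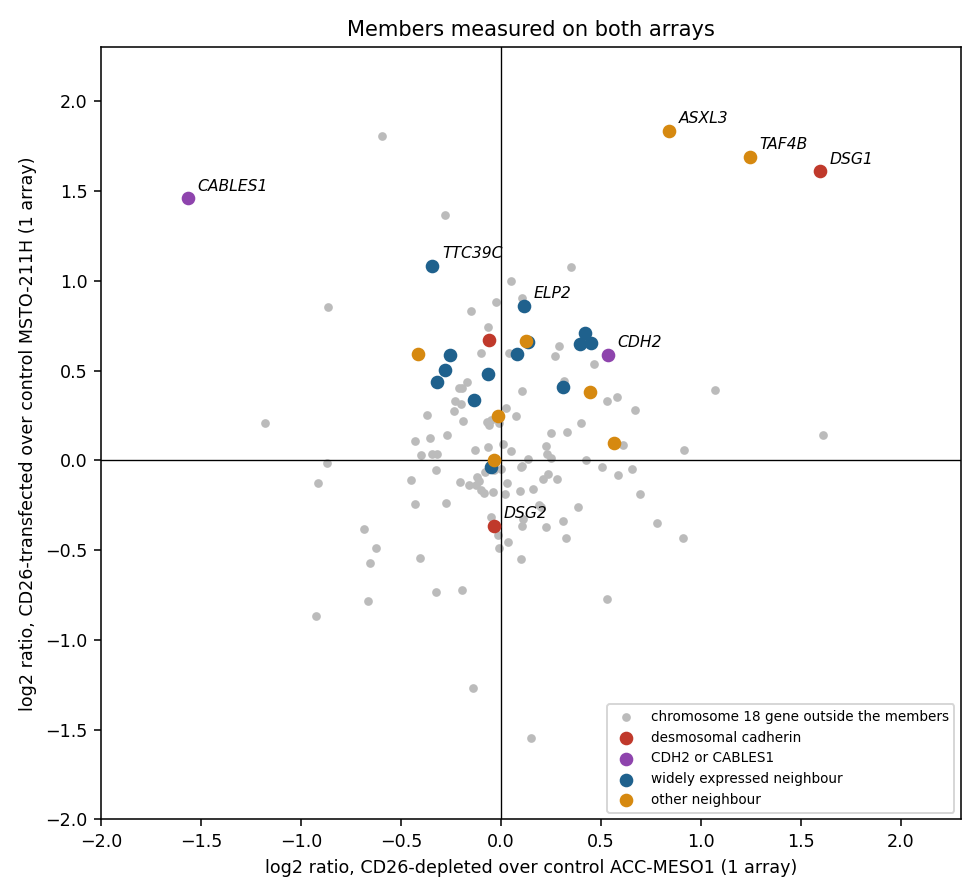
Log2 ratio after CD26 transfection (vertical axis) against log2 ratio after CD26 depletion (horizontal axis) for the 27 members measured on both arrays, coloured by group, and for other chromosome 18 genes in grey. Most members lie above 0 on the vertical axis and on either side of 0 on the horizontal axis, with CABLES1 at the upper left and DSG1 and TAF4B at the upper right.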

How the data were processed

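Amplified RNA was hybridised to 2 two-colour arrays, Cy3 carrying the manipulated cells and Cy5 the control cells, per the labels' protocols. The deposited values are normalized log2 ratios, and the authors give their direction, manipulated over control cells, in the sample descriptions. Each column has a median of 0. The background correction, the normalization method and the rule for empty values are not stated in the labels. No channel intensities were analysed here, so depth and signal over background are unknown.

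Probes were named through the platform annotation, updated through RefSeq synonyms, and averaged per gene with Python 3.11.15 and pandas 2.3.3. Gene order, promoter sequences and names came from RefSeq, GRCh38.p14; the deposited values carry no coordinates. No test was possible with 1 array per contrast, so counts past a log2 ratio of 1 and medians are descriptions. Their calculation was checked on simulated data with noise below the between-probe SD and shifts well away from a log2 ratio of 1. That check does not measure how reliable the counts are. Named genes were every member with a value, the 5 measured genes on each side of the block, members of the desmosome and adherens junction lists past 2-fold, and DPP4; other genes named were chosen after their values were seen. Members and lists were chosen with earlier results of these data known. Alternatives were the probe of largest absolute ratio, centring on 34 ribosomal protein genes or on the rest of chromosome 18, symbols as listed, genes measured on both arrays, and other thresholds.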

Additional observations from a re-analysis of the deposited data

How the results depend on the processing

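For 1 array per contrast, a median was said to move when it changed by more than the between-probe SD scaled to the number of genes, and a count when it changed by over 1.5 times. Centring on ribosomal protein genes raised all values, giving after depletion 0.41 for the block members, 0.28 for the desmosomal cadherins, 0.34 for the widely expressed neighbours, 0.77 for the other neighbours, 0.33 for chromosome 18 outside the block and 0.31 for desmosome genes elsewhere. After transfection the same medians were 0.87, 0.74, 0.87, 0.77, 0.29 and 0.42. With that centring 4 members were higher by at least 2-fold in depleted cells and 4 had opposite signs on the arrays. The shares of all genes with that centring were not counted. With symbols as listed, which loses 4 members, the block median after depletion was -0.018, that of the other neighbours 0.28, and 3 members were at least 2-fold higher after transfection. Among genes measured on both arrays the other neighbours had 0.28 after depletion.

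At a log2 ratio of 0.5, 6 members were higher after depletion and 17 after transfection, and at 1.5 these were 1 and 3. The shares of all genes at 1.5 were not counted. Without the desmosomal cadherins, CDH2 and CABLES1, 1 was at least 2-fold higher and 0 lower after depletion, and 3 higher after transfection, while the block median after transfection was 0.59. With the non-member genes of the span, an alternative chosen after seeing the data, it was 0.59. With the probe of largest absolute ratio CABLES1 was at 2.23 after transfection, and with the probe that has a value on both arrays, also chosen after seeing the data, at 0.69. The block median after transfection stayed between 0.54 and 0.87 over all these alternatives. No paired analysis was possible because each contrast is 1 array. Signal over background is unknown, so a ratio of a dim probe could not be told from that of a bright one.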
